A study of Mus musculus with 3 samples.

Results

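The stathmin family of microtubule regulators was examined on 3 arrays of the mouse line F9, embryonal carcinoma cells that grow undifferentiated and resemble early embryonic stem cells. The members were all probe sets whose platform annotation names Stmn1, Stmn2, Stmn3 or Stmn4 and no other gene. They came to 7 probe sets for 4 genes, of 45101 probe sets and 18193 singly named genes in all. The family was chosen because Stmn2, a gene of neurons, had a signal in F9 cells, so the members' detection is given here as a description with no test.

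The study started from total RNA of undifferentiated F9 cells, with biotin as the label, and used Affymetrix Mouse Genome 430 2.0 arrays. There was 1 array for each of 3 labelled replicates. The labels describe growth on plates coated with 0.2% gelatin, in DMEM with 10% fetal calf serum, and RNA taken at about 80% confluence. They name no treatment, genetic change or second cell state, so the 3 arrays form 1 group. The labels do not say whether the replicates were separate cultures, so the p-values below cover only how far these 3 samples differed, which may be technical variation.

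Stathmins are small proteins that hold free tubulin dimers and promote the shrinking of microtubule ends. Stathmin 1 is cytosolic and found in many dividing and embryonic cells, where phosphorylation during mitosis switches it off. Stathmins 2, 3 and 4 (SCG10, SCLIP and RB3) carry an added amino-terminal stretch that anchors them to Golgi and vesicle membranes, and are best known from neurons, where they serve axon growth and upkeep.

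Signals are linear intensities scaled to the same trimmed mean on every array. The 129 background probe sets, for 115 genes of olfactory, vomeronasal and taste receptors and keratin-associated proteins, set a threshold at their 95th percentile. On replicates 1, 2 and 3 it came to signals of 44.4, 46.04 and 43.1. Distances to it are given as log2 of the signal minus log2 of the threshold. A probe set's signal depends on how well its probes bind, so each was read against this threshold and against itself on the other arrays. List medians, summed signals and remarks on nearness to the threshold mix genes with different probes. They are descriptions and do not rank the genes by amount of RNA. All 10 embryonal carcinoma markers measured were above background, including Pou5f1 (Oct4) with a signal of 6809 ± 279 (SD, n = 3). Nanog had a signal of 4866 ± 392, Sox2 of 4794 ± 208 and Zfp42 of 6137 ± 128. Of all named genes, 51.1% were above background.

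Stmn2 was read by both of its probe sets, far over the threshold on every array. Probe set 1423281_at had signals of 822, 799 and 798 on replicates 1, 2 and 3, a mean of 806 ± 13.7 (SD, n = 3). Probe set 1423280_at had 659, 678 and 637, a mean of 658 ± 20.5 (SD, n = 3). No array stood apart, and the array with the highest signal was not the same for the probe sets. Both were designed on the same sequence record, BM115022, so they are repeat readings of 1 record and not independent evidence of the gene. Their mean distances to the threshold were 4.18 and 3.88 log2 units, or 18.1 and 14.8 times the threshold signal.

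Stmn3, which encodes the neuronal protein SCLIP, was over the threshold in the same way. Its probe set 1460181_at, designed on the RefSeq transcript NM_009133, had signals of 659, 675 and 641 on replicates 1 to 3 (mean 658 ± 16.7, SD, n = 3). Probe set 1435113_x_at, designed on another record, AV007850, had 1501, 1408 and 1272 (mean 1394 ± 115, SD, n = 3). The mean distances were 3.89 and 4.97 log2 units. The readings thus came from different sequence records, unlike those of Stmn2. The x in a probe set's suffix is the array maker's mark for probes that may bind other transcripts, and the probe set without that mark was over the threshold on all 3 arrays too.

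Stmn1, the stathmin of dividing cells, was over the threshold on both of its probe sets, on every array. Probe set 1415849_s_at had signals of 7963, 8443 and 8187 on replicates 1 to 3 (mean 8198 ± 240, SD, n = 3), 7.52 log2 units over the threshold. Probe set 1448113_at had 582, 517 and 677 (mean 592 ± 80.1, SD, n = 3), 3.72 units over it. Both were designed on record BC010581. The s in a suffix marks probes shared by transcripts of more than 1 gene. Whether RNA of another gene reached that probe set was not tested.

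Stmn4, which encodes the neuronal protein RB3, was the only member under the threshold. Its single probe set, 1418105_at, had signals of 8.08, 6.21 and 4.32 on replicates 1, 2 and 3 (mean 6.20 ± 1.88, SD, n = 3). Their distances to the thresholds of their arrays were -2.46, -2.89 and -3.32 log2 units, a mean of -2.89. On each array the signal exceeded only 43 to 49 of the 129 background probe sets, whereas every Stmn1, Stmn2 and Stmn3 reading exceeded all 129. A signal in this range does not show that the RNA was absent, and with 1 probe set no second reading of Stmn4 was at hand.

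Of the 7 member probe sets, 6 were over the threshold on all 3 arrays, against 48.3% of the singly named probe sets outside the background families. Since detection chose the family, nothing is read from that share. The member reading just inside the threshold was Stmn1 on 1448113_at, with a lowest signal of 517, and the one just outside was Stmn4, with a highest signal of 8.08. No member lay near the threshold.

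**Figure D1:**
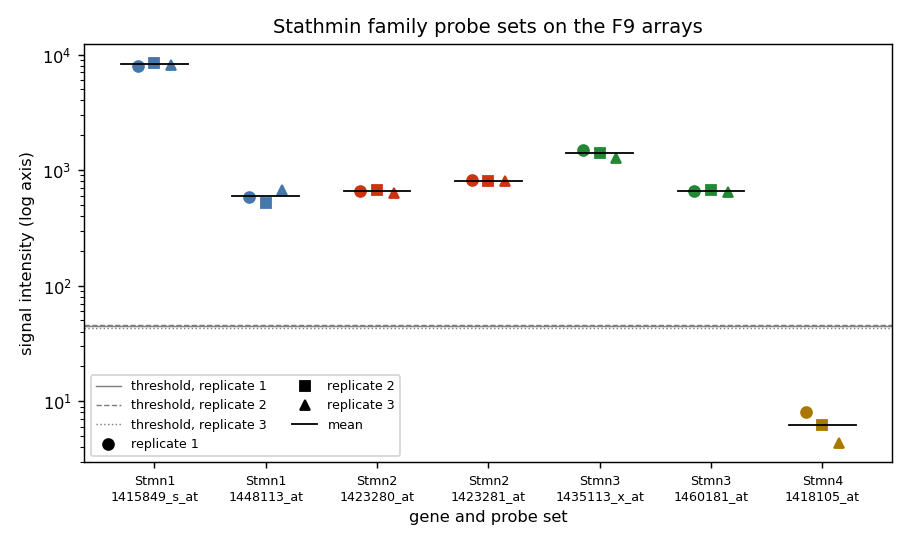
Signal intensity of the 7 stathmin probe sets (log axis) on replicates 1 (circles), 2 (squares) and 3 (triangles), with the mean as a bar and each array's background threshold as a grey line. The Stmn1, Stmn2 and Stmn3 probe sets lie over the thresholds of 44.4, 46.04 and 43.1 on every array, and Stmn4 lies below them at 4.32 to 8.08.

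The replicates' spread was not used to choose the members and differed between probe sets. For Stmn2 the highest signal over the lowest was 1.03 on 1423281_at and 1.06 on 1423280_at, with SDs of log2 signal of 0.024 and 0.045. Among the 1000 probe sets nearest in mean signal, 5.6% and 11.8% had a smaller SD, and their median SDs were 0.10 and 0.11. Stmn2 was thus among the steadier readings of its signal range on these arrays. The Stmn3 probe set 1460181_at had an SD of 0.037, with 7.6% of like probe sets below it, and 1435113_x_at an SD of 0.12, with 66.7% below it.

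The readings of Stmn1 also differed in spread. On 1448113_at the SD was 0.19, larger than that of 82.9% of probe sets of like signal, with the highest signal on replicate 3 and the lowest on replicate 2. On 1415849_s_at it was 0.042 (28.5%), with the highest signal on replicate 2. The probe sets of this gene therefore did not rank the arrays alike. Stmn4 had the largest SD of the family, 0.45, yet only 10.2% of probe sets of like low signal had a smaller one. With 3 arrays each SD is itself imprecise, and these percentiles are descriptions.

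**Figure D2:**
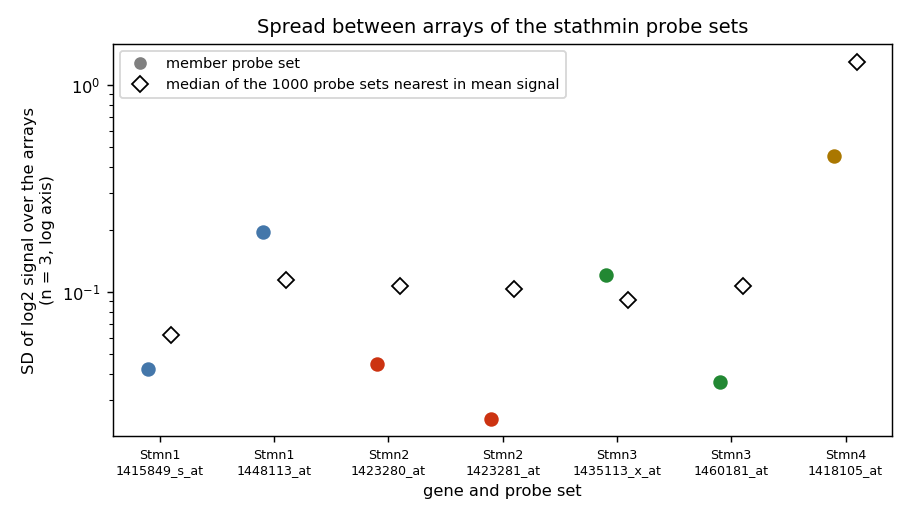
Standard deviation of log2 signal over the 3 arrays (log axis) for each stathmin probe set (filled circles, coloured by gene), beside the median over the 1000 probe sets nearest in mean signal (open diamonds). Both Stmn2 probe sets (0.024 and 0.045) lie under their diamonds (0.10 and 0.11), and Stmn1 1448113_at (0.19) lies over its own (0.11).

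Promoter sequence was at hand for 1 of the 4 genes, Stmn3. It is shown because Stmn3 is the neuronal family member read over the threshold from different sequence records. The 250 bases before its start (RefSeq, GRCm38.p6, chr2:181314501-181314750, minus strand) are printed 5′ to 3′ with CpG dinucleotides in capitals.
Stmn3: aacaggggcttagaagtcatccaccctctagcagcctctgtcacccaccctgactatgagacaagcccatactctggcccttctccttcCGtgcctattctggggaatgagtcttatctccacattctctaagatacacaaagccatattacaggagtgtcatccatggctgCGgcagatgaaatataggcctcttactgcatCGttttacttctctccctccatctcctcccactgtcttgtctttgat
The window held 3 CpG dinucleotides, against a median of 6 in 32851 windows of the same length, and 37.8% of those windows held as few or fewer. Its GC content was 48.8%. The letters TATAAA were not found on either strand, and 12.4% of all windows held them. That says only that these letters are not in this window.

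The 4 genes lie on 4 different chromosomes. The 2 nearest measured protein-coding genes on each side of a member were read to describe its surroundings, and 13 of these 16 neighbours were above background by limma's test with Benjamini-Hochberg adjustment, against 51.1% of all named genes. Beside Stmn2, the mitochondrial ribosomal protein gene Mrps28 had signals of 2260, 2049 and 2062 (limma adjusted p = 0.000109). Zc2hc1a, on the other side, had 570, 546 and 689 on replicates 1 to 3 (limma adjusted p = 0.000222). Both lay well over the threshold on every array.

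Hey1, a Notch-responsive repressor gene next to Stmn2, stood close to the threshold at 62.9, 63.0 and 52.9 (limma adjusted p = 0.0426), and its call ended when any 1 array was left out. The cytokine gene Il7, at 42.9, 40.5 and 40.3, was not above background. Stmn2 thus had both kinds of neighbour.

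All 4 neighbours of Stmn1 passed. Aunip, which encodes a partner of the mitotic kinase Aurora A, had a signal of 360 ± 66.5 (SD, n = 3), and Pafah2, a phospholipase gene, of 179 ± 22.0. Extl1 (71.4 ± 13.4) and Paqr7 (64.0 ± 6.96) passed too, though both calls ended when any 1 array was left out, with 10 of 16 neighbours then called. Of the neighbours of Stmn3, Gmeb2 (196 ± 16.2), the helicase gene Rtel1 (569 ± 63.0) and the GTPase gene Arfrp1 (515 ± 60.4) passed, and Helz2 (29.3 ± 10.9) did not. Rtel1 was read on an s-suffixed probe set and passed on 3 of its 4 probe sets. It lay at -0.86 log2 units when s- and x-suffixed probe sets were left out. Paqr7 and Gmeb2 each passed on 1 of 2 probe sets.

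Stmn4, itself under the threshold, had 3 of 4 neighbours above background. Trim35 had signals of 1563, 1532 and 1278 on replicates 1, 2 and 3 (limma adjusted p = 0.000112). Dpysl2, which encodes the tubulin-binding growth cone protein CRMP2, had a signal of 312 ± 13.4 (SD, n = 3), and the neuronal antigen gene Pnma2 of 224 ± 9.25. Trim35 passed on 2 of 3 probe sets, and Dpysl2 and Pnma2 each on 1 of 2. The kinase gene Ptk2b, at 34.1 ± 3.22, was not above background.

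**Figure D3:**
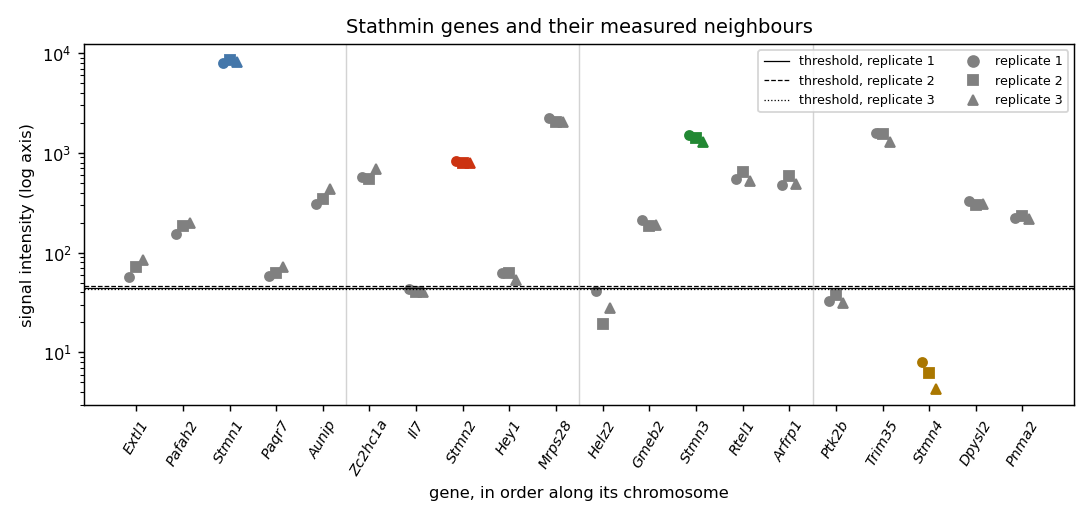
Signal intensity (log axis) on replicates 1 (circles), 2 (squares) and 3 (triangles) of each stathmin gene (coloured, its probe set with the highest mean) and of the 2 nearest measured protein-coding genes on each side (grey), with each array's background threshold as a line. Stmn4, at 4.32 to 8.08, lies under the threshold between Trim35 and Dpysl2, which lie over it.

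The proteins that stathmins bind were measured next. All 9 tubulin genes measured were above background by limma's test, with a median distance of 5.67 log2 units, against 51.1% and a median of 0.72 over all named genes. Tuba1a, an alpha tubulin of embryonic tissue, had signals of 6783, 7627 and 8412 on replicates 1 to 3 (limma adjusted p = 0.000109). Tuba4a stood at 2844 ± 115 (SD, n = 3), Tubb2b at 2301 ± 450 and Tubb2a at 389 ± 73.9. Tubb2a passed on 1 of its 2 probe sets, an s-suffixed one. The 1 probe set of Tuba1a was x-suffixed, and whether RNA of another tubulin gene reached it was not tested. Without s- and x-suffixed probe sets, 7 of 8 tubulin genes were called. The count was 8 of 9 at the 99th percentile, with probe sets chosen by suffix, without replicate 1 and without replicate 2.

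Genes for kinases, a phosphatase and partners that act on stathmins were above background in 14 of 16 cases, against 51.1% of all named genes. The median distance was 3.22 log2 units, against 0.72. Cdk1, the mitotic kinase that phosphorylates stathmin 1, had signals of 3864, 3571 and 3590 (limma adjusted p = 0.000109). Cdk2 stood at 782 ± 12.9 (SD, n = 3) and passed on 1 of 2 probe sets. Cdk5, a kinase best known from neurons, stood at 373 ± 31.4 and passed on 1 of 3. On the probe sets preferred by suffix, 10 of the 16 were called, and Cdk2 and Cdk5 lay at -4.95 and -0.012 log2 units.

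The Jun kinases, which phosphorylate stathmin 2, did not all pass. Mapk8 (JNK1) had signals of 376, 361 and 359 on replicates 1 to 3 and passed on 5 of 5 probe sets (limma adjusted p = 0.000186). Mapk9 (JNK2) had 364, 381 and 415 and passed on 3 of 3 (limma adjusted p = 0.000218). Mapk10 (JNK3), the isoform known from brain, had 12.9, 13.7 and 15.7 and passed on 0 of 3. Camk4, a calcium-dependent kinase of neurons and lymphocytes, had a signal of 25.8 ± 5.07 (SD, n = 3) and was the other member of the list that did not pass.

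General microtubule regulators were above background in 16 of 17 cases, against 51.1% of all named genes. The median distance was 4.08 log2 units, against 0.72. Kif2c, a depolymerising kinesin, stood at 1334 ± 52.3 (SD, n = 3). The polymerase gene Ckap5 stood at 1008 ± 93.0, the end-binding protein gene Mapre1 (EB1) at 2330 ± 40.5, and the spindle factor gene Tpx2 at 1352 ± 34.9. Mapre3 (EB3), the end-binding protein best known from neurons and muscle, had signals of 23.0, 40.8 and 13.3 and did not pass. With probe sets chosen by suffix the count was 9 of 17, and Kif2c and Ckap5 lay at -0.052 and -1.37 log2 units.

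The list of neuronal microtubule proteins was mixed, with 10 of 16 (62.5%) above background and a median distance of 1.20 log2 units, near the 51.1% and 0.72 over all named genes. It also held Cnp, which passed, and Tppp, which did not, and these are not particular to neurons. Map1b passed at signals of 162, 137 and 230 on replicates 1 to 3 (limma adjusted p = 0.00353), on 1 of 3 probe sets. Mapt, the tau gene, passed at 108, 71.1 and 97.3 (limma adjusted p = 0.0144), on 1 of 4. Dcx (doublecortin), a marker of migrating young neurons, had 6.26, 23.9 and 28.1 and did not pass.

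Map2, the dendritic counterpart of tau, had a signal of 39.9 ± 11.6 (SD, n = 3), Dclk1 of 21.9 ± 8.86 and Dpysl5 of 39.5 ± 12.9, and none of these passed on any probe set. Other genes of the list did pass, among them Dpysl3 (494 ± 7.12) on 3 of 3 probe sets and Dpysl4 (221 ± 25.2) on 2 of 3. Crmp1 (176 ± 22.4) passed on its 1 probe set and Mapk8ip1 (286 ± 63.8) on 1 of 2. The call of Mapt ended without replicate 1 and without replicate 3. With probe sets chosen by suffix the list's count fell to 5 of 16, and Map1b and Mapt lay at -0.98 and -2.64 log2 units.

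Growth cone and synapse genes, the setting in which stathmin 2 is best known, were above background in 15 of 25 cases (60%), with a median distance of 0.81 log2 units. Both lay near the 51.1% and 0.72 over all named genes, so the count says little about the list. Gap43, the growth cone protein often studied beside stathmin 2, had signals of 192, 202 and 204 on replicates 1 to 3 (limma adjusted p = 0.0004). The synaptic genes Snap25 and Syp did not pass. Snap25 had 16.5, 9.99 and 8.71, under the threshold on every array, and Syp had 26.2, 38.0 and 61.5, over it on replicate 3 alone. Other synaptic genes of the list, Stx1a (184 ± 58.3, SD, n = 3), Vamp2 (108 ± 20.8) and Syt1 (70.8 ± 10.5), passed, each on 1 probe set. Syn1 and Rab3a, described below, passed too.

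The neuronal RNA-binding protein gene Elavl4 (HuD), which is known to bind neuronal messages such as Gap43, had signals of 59.1, 41.3 and 38.8 and did not pass. The granule protein gene Chgb (12.2 ± 8.67, SD, n = 3) and the adhesion gene Cntn2 (54.2 ± 9.05) did not pass either. With probe sets chosen by suffix 9 of the 25 were called.

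Stmn2 is a classic target of REST, a repressor that silences neuronal genes in other cells through the RE1 element. All 14 genes measured for REST and its cofactors were above background, against 51.1% of all named genes. The median distance was 4.59 log2 units, against 0.72. With probe sets chosen by suffix 11 of the 14 were called. Rest had signals of 1287, 1231 and 1278 on replicates 1 to 3 (limma adjusted p = 0.000111), and passed on 2 of its 4 probe sets. The corepressor genes Rcor1 (CoREST) and Rcor2 stood at 516 ± 25.2 (SD, n = 3) and 481 ± 110, and the demethylase gene Kdm1a (LSD1) at 1732 ± 124. On the probe set preferred by suffix Rest lay at 0.58 log2 units and was not called.

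Other neuronal genes known for an RE1 element were above background in 5 of 23 cases, with a median distance of -0.81 log2 units, against 51.1% and 0.72 over all named genes. The sodium channel gene Scn2a had signals of 7.25, 42.4 and 5.89 on replicates 1 to 3, the receptor gene Chrnb2 49.7, 40.3 and 35.1, and the neurotrophin gene Bdnf 4.01, 51.7 and 9.13. None of these passed. Chrnb2 was over the threshold on replicate 1 alone, Bdnf on replicate 2 alone, and Scn2a on no array.

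The 5 that passed included Kcnh2, a potassium channel gene, at 204, 207 and 208 (limma adjusted p = 0.000364), and the synaptic complexin gene Cplx1 at 215, 207 and 247 (limma adjusted p = 0.000545). Cplx2 (77.2 ± 17.8, SD, n = 3), Syn1 (81.04 ± 26.1) and L1cam, an axonal adhesion gene (75.9 ± 5.59), also passed, nearer to the threshold. The calls of Cplx2 and Syn1 ended without replicate 1 and without replicate 2, and that of L1cam without replicate 2. The list's count was 3 without replicate 1, 2 without replicate 2, 2 at the 99th percentile and 3 with probe sets chosen by suffix. Stmn3, a member, was written into this list and is not counted in it.

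In axons stathmin 2 is turned over through the kinase DLK and the Jun kinases, beside the NAD-linked pair NMNAT2 and SARM1. Of this list 13 of 16 genes were above background, against 51.1% of all named genes. The median distance was 1.92 log2 units, against 0.72. The count was 10 without replicate 1, 10 without replicate 2, 11 without replicate 3 and 10 at the 99th percentile. Map3k12, which encodes DLK, had signals of 214, 151 and 206 on replicates 1 to 3 (limma adjusted p = 0.0016). Nmnat2 had 110, 89.6 and 83.6 (limma adjusted p = 0.0052), and Sarm1 67.9, 62.1 and 62.1 (limma adjusted p = 0.0215). The call of Sarm1 ended when any 1 array was left out.

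The kinase gene Map2k4 stood at 642 ± 38.2 (SD, n = 3). Jun, the transcription factor gene downstream of these kinases, had signals of 38.2, 29.8 and 42.5 and did not pass. Nor did Nmnat3 (14.8 ± 7.37) or Mapk10.

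**Figure D4:**
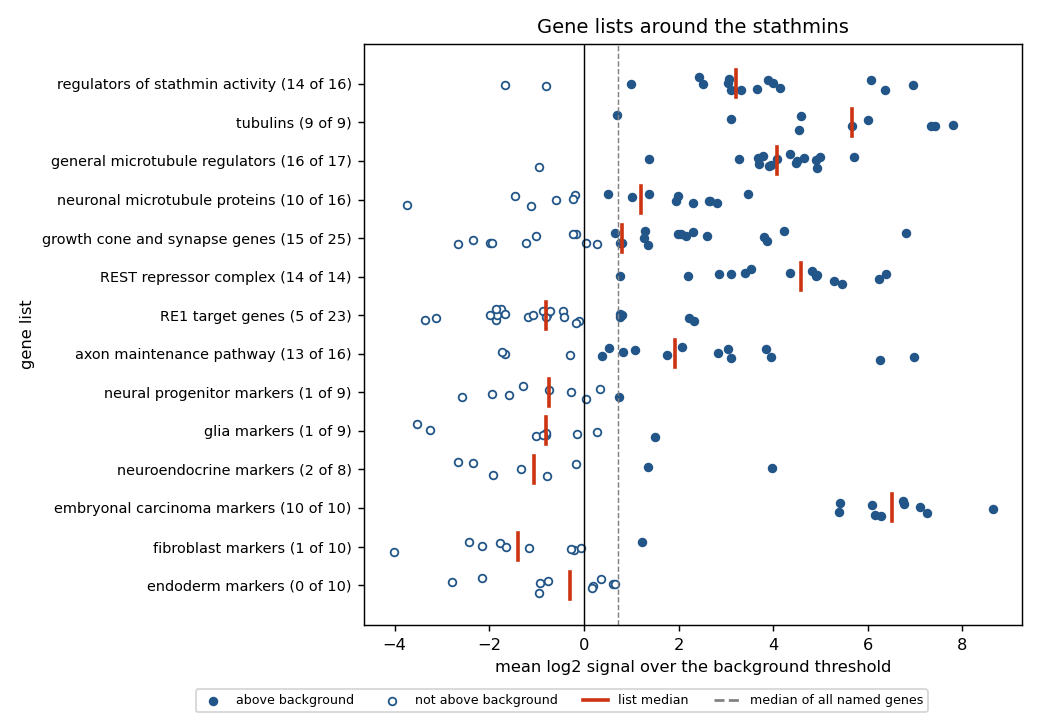
Mean log2 signal over the background threshold for each measured gene of the 14 lists (filled: above background by limma with an adjusted p under 0.05; open: not), with list medians in red, the median of all named genes (0.72) dashed, and counts in brackets. The lists of tubulins (9 of 9) and REST cofactors (14 of 14) lie wholly to the right of 0, and most RE1 target genes (18 of 23) are open circles.

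Markers of other cells that a culture could hold were mostly not above background, whereas 51.1% of all named genes were. Neural progenitor markers were above background in 1 of 9 cases, with summed signals of 303, 331 and 286 on replicates 1 to 3. The intermediate filament gene Nes passed (74.4 ± 6.75, SD, n = 3), with its call lost without replicate 1 and without replicate 3, whereas Sox1 (56.4 ± 6.36), Pax6 (46.2 ± 5.23) and Neurog1 (40.04 ± 18.2) did not pass. Glial markers passed in 1 of 9 cases, the glutamate transporter gene Slc1a3 (127 ± 9.51), with sums of 374, 323 and 330, and Gfap, Aqp4, Mbp and S100b did not.

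Neuroendocrine markers passed in 2 of 8 cases, with sums of 870, 924 and 1036. They were Chga (114 ± 3.24, SD, n = 3) and Ddc, the aromatic amino acid decarboxylase gene (706 ± 69.4). Ddc passed on 1 of 2 probe sets, and its signals of 632, 717 and 769 made up most of each sum. Scg2 (9.26 ± 6.45), Pcsk1 (14.9 ± 12.9) and Chgb did not pass. Fibroblast markers passed in 1 of 10 cases, Thy1 (105 ± 17.3), with sums of 328, 311 and 292, and Col1a1, Col1a2, Col3a1 and Pdgfra did not. Endoderm markers passed in 0 of 10 cases by limma's test, with 3 at an unadjusted p under 0.05 and sums of 367, 457 and 423. Yet 3 of the 10 were over the threshold on all 3 arrays. Among these were Gata6 (57.5 ± 3.95, limma adjusted p = 0.0501) and Sox17 (69.7 ± 18.6, limma adjusted p = 0.0724). Gata4 (52.8 ± 17.7) and Afp (16.8 ± 20.2) were not. Between 0 and 3 endoderm markers passed under the other settings tried. No marker was listed at a signal of exactly 0. The part of any such cells in the Stmn2 and Stmn3 signals was not tested.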

How the data were processed

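The values are linear signal intensities deposited by the authors, 1 per probe set and array. They were made with GCOS 1.4, per the submitters' processing notes; their summary algorithm is not given in the sources used here, nor are detection calls. The mean signal after trimming 2% at each end was 250.002 on every array, so the deposited intensities had been scaled, and no further normalization was applied. Genes were named through the platform's annotation, dated 2016; probe sets with several symbols or none name no gene, and list genes without a singly named probe set were not analysed here.

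The log2 distance to each array's threshold was fitted with limma 3.58.1 in R 4.3.3 (intercept, eBayes, one-sided, Benjamini-Hochberg over 45101 probe sets, adjusted p threshold 0.05). A gene stood as its probe set with the highest mean signal. The text names every member probe set, the first 4 measured genes of each of 14 lists and all neighbours. It also names up to 3 genes per list, in alphabetical order, on the other side of the call from the majority. A further 12 genes, L1cam and those marked so in the closing section, were named after their values were seen. So, outside that count, were Stx1a, Vamp2, Syt1, Nefl, Dpysl3, Dpysl4, Crmp1, Mapk8ip1, Mapk9, Cnp and Tppp. The members and lists were chosen with earlier results of these data known. On simulated arrays, 77% of 200 probe sets set 1 log2 unit over the threshold were called, 94% at 2 units and 4% at the threshold. Alternatives were other thresholds, quantile normalization, a floor of 10, other probe set choices and leaving out each array. The number of arrays limits the precision.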

Additional observations from a re-analysis of the deposited data

How the results depend on the processing

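The count of 6 of 7 stathmin probe sets over the threshold on all arrays was 6 under all 8 alternatives tried on it, which were other thresholds, quantile normalization, a floor of 10 and each array left out. Detection chose the family and no member lay near the threshold, so this count could hardly change and nothing is read from it. The distance of Stmn2 on 1423281_at ranged from 3.80 to 4.51 log2 units and that of Stmn4 from -3.26 to -2.15. The count of named genes above background, 9240, ranged from 7841 to 9684. With probe sets chosen by suffix, 9 general microtubule regulators, 5 neuronal microtubule proteins, 9 growth cone and synapse genes and 3 RE1 target genes were called. These genes then had distances below 0: Cdk2 (-4.95), Mapt (-2.64), Paqr7 (-1.40), Ckap5 (-1.37), L1cam (-1.17), Cdkn1b (-1.02), Map1b (-0.98), Rtel1 (-0.86, also without _s_at and _x_at probe sets), Kif2c (-0.052), Cplx2 (-0.039) and Cdk5 (-0.012). That alternative reads another probe set of the same gene. At the 99th percentile 2 RE1 target genes and 0 neural progenitor markers were called, and at the 90th percentile 2 neural progenitor and 3 endoderm markers. Endoderm markers called were 2 with olfactory receptors only, 1 with quantile normalization and 2 with the floor. With each array left out, RE1 target genes called ranged from 2 to 5, neural progenitor markers from 0 to 1 and endoderm markers from 0 to 1. The cause of these shifts was not tested. Of the 98 list and neighbour genes named by the rule or among the 12 chosen later, 76 kept the same call under every alternative. The genes named outside that count were not included. No paired analysis was possible because the series has a single group. Low signals limit the calls: on simulated arrays 58% of probe sets set 0.5 log2 units over the threshold were called, with a median fitted distance of 0.60; the threshold was estimated again on those arrays.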

Other observations

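Among the growth cone and synapse genes, some that the naming rule did not reach lay further over the threshold, and are given here as chosen after their values were seen. Basp1, a membrane protein gene of growth cones that is also expressed outside neurons, had signals of 5289, 5187 and 4570 on replicates 1 to 3. Uchl1, a deubiquitinase gene known from neurons and germ cells, had 849, 777 and 882. Elavl2 (HuB), the RNA-binding protein of the Hu family also known from germ cells, had 586, 565 and 733 and was above background on 4 of 5 probe sets. Rab3a, a synaptic vesicle GTPase gene, had 691, 837 and 484, above background on 1 of 2, an x-suffixed one. The vesicle and granule genes Scg2 and Scg3 had means of 9.26 and 15.8 and the neurofilament gene Nefm of 22.04, none of them above background. Chgb did not pass either. Yet the granule gene Chga (114 ± 3.24, SD, n = 3) passed, as did the neurofilament gene Nefl (109 ± 15.5). The neurofilament gene Ina (alpha-internexin) stood at 271 ± 38.6 (SD, n = 3) and passed on 3 of 3 probe sets.

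Among the partners of stathmin 1, Siva1 had signals of 3141, 3220 and 2657 on replicates 1 to 3 and passed on 4 of 4 probe sets. The cell cycle inhibitor gene Cdkn1b had 706, 700 and 739 and passed on 1 of 2. Ppp2ca, the catalytic subunit gene of a phosphatase that acts on stathmin, had 5370, 5517 and 5696. Tardbp, whose protein TDP-43 controls STMN2 splicing in human neurons, had 3321, 3586 and 3376 and passed on 5 of 5 probe sets. These genes were also chosen after their values were seen. Stmnd1, which is annotated for a stathmin domain and is no member of the family as defined here, had 31.8, 16.2 and 35.6, under the threshold on every array.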
